A study of Mus musculus with 10 samples.

Results

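The 9 genes described here belong to simple epithelium and to the cornified layer of the epidermis: *Sprr1a*, *Dmkn*, *Ceacam1*, *Ceacam2*, *Krt7*, *Krt8*, *Krt18*, *Krt19* and *Epcam*. They are 9 of the 53801 genes in the count table and were chosen by their read counts in *Creb3l1* knockdown AtT20 cells, where *Sprr1a*, *Ceacam1* and *Dmkn* had the largest falls among coding genes that averaged 100 normalised counts or more. The measured values of that comparison thus selected the genes, and their differences between the lines are given as a description with no p-value. RNA sequencing was performed on AtT20/D16v-F2 cells, a mouse corticotroph line from a pituitary tumour that makes the ACTH precursor proopiomelanocortin. All cells carried a lentivirus and stably expressed a short hairpin RNA (shRNA), which was directed against *Creb3l1* in the knockdown line (n = 5 libraries) and was a non-targeting sequence in the control line (n = 5 libraries). *Creb3l1* encodes a transcription factor that is held in the membrane of the endoplasmic reticulum until it is cleaved. Each shRNA was represented by a single stable line in these data, so the effect of the knockdown and any other difference between the lines cannot be told apart. The study's methods call the replicates biological, but the labels do not say that the libraries came from separate cultures, and the p-values below then measure only the spread between these libraries.

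The cornified envelope is a sheath of cross-linked protein under the membrane of a dying keratinocyte. Small proline-rich proteins such as Sprr1a are joined into it by transglutaminases, and *Sprr1a* is also known as a gene that injured peripheral neurones switch on. Dermokine, the product of *Dmkn*, is secreted by differentiating keratinocytes. Ceacam1 and its rodent paralogue Ceacam2 are adhesion molecules of the immunoglobulin family, and Ceacam1 carries inhibitory tyrosine motifs in its long cytoplasmic tail. Keratins form filaments only as pairs of a type II chain (Krt7, Krt8) with a type I chain (Krt18, Krt19), and Krt8 with Krt18 is the first pair made in simple epithelium. Epcam is an adhesion molecule at the lateral membrane of epithelial cells. Endocrine cells of the anterior pituitary arise from oral ectoderm, itself an epithelium.

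The start regions of *Sprr1a*, *Dmkn* and *Ceacam1*, whose values chose the genes, are shown because factors of the CREB3 family are known to bind G-box and CRE-like elements, and because a start region is where such words would be sought first. The sequences are the 250 bases before the RefSeq transcription start on GRCm38.p6, written 5′ to 3′ on the strand of the gene, for *Sprr1a* at chr3:92485882-92486131 on the minus strand, *Dmkn* (the first of 3 annotated starts) at chr7:30763506-30763755 on the plus strand and *Ceacam1* at chr7:25477626-25477875 on the minus strand. Capitals mark the words searched on either strand, which were the G-box cores GACGTG and CACGTG, the CRE-like word TGACG, which overlaps GACGTG where they share letters, and the AP-1 word TGANTCA.
Sprr1a: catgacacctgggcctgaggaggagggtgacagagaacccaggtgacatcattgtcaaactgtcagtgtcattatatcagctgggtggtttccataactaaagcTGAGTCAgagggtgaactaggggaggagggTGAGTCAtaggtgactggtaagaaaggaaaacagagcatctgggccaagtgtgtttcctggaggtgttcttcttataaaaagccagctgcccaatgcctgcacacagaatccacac
Dmkn: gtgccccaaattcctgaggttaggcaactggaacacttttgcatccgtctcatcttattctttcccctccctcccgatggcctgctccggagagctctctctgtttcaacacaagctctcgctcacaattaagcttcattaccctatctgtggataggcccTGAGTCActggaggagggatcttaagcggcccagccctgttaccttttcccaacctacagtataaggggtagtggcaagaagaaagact
Ceacam1: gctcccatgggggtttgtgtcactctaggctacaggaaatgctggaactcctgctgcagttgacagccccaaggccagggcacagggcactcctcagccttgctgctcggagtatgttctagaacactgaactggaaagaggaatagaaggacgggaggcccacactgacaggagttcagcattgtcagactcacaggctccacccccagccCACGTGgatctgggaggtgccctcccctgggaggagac

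In windows of 300 bases, 250 before and 50 after each start, GACGTG was found in 6.38% of all 32851 RefSeq windows, CACGTG in 7.15%, TGACG in 20.8% and TGANTCA in 7.81%. Among the 13311 windows of tested genes the shares were 9.26%, 9.68%, 30.8% and 4.97%. In the *Sprr1a* window TGAGTCA was present at positions -146 and -116 from the start, and 0.460% of all windows held the AP-1 word at least 2 times. Each of the 3 *Dmkn* windows held TGAGTCA once, at -89, -91 and -82, and the third also held TGACG at -177. The first 2 of these windows start 2 bases apart and show the same word. The *Ceacam1* window held CACGTG at -38, the *Ceacam2* window held TGACG at -247 and the *Epcam* window held CACGTG at 31. None of the words was found in the windows of *Krt7*, *Krt8* and *Krt18*, and GACGTG was found in none of the windows of these genes. *Krt19* had no window.

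The 10 libraries held 17420698 to 22205107 reads assigned to genes. Counts were scaled by edgeR's TMM factors and are given as normalised counts, which are counts brought to a common library size. The TMM factors were between 0.9998 and 1.007, except for 0.953 in non-targeting replicate 3. *Creb3l1* itself had 3689 ± 148 normalised counts (SD, n = 5) in the control line and 1090.0 ± 59.2 (SD, n = 5) in the knockdown line. Its log2 fold change was -1.76 (SE 0.04, adjusted p = 2.04e-33, edgeR's quasi-likelihood test, adjusted after Benjamini-Hochberg). Corticotroph markers were present in every library, at a summed level of 12096 to 12834 CPM (counts scaled for library size) in the control line and 11111 to 11508 in the knockdown line. Of the 10 markers, *Avpr1b* had at most 3 counts in any library. Of the 9 tested, 4 rose and 4 fell at an adjusted p under 0.01 (edgeR), with a median log2 fold change of -0.11. By that rule 20.6% of all tested genes were called higher and 20.1% lower. *Pomc* fell from 131411 ± 4050 to 92045 ± 2652 normalised counts (SD, n = 5, log2 fold change -0.51), and *Pcsk1*, the prohormone convertase that cuts its product, by 0.46 on the log2 scale. The study's quantitative PCR of its *Creb3l1* knockdown lines, another measure, found *Pomc* mRNA unchanged. *Scg2* and *Neurod1* rose, with log2 fold changes of 0.91 and 0.62, and the value of *Crhr1*, the receptor gene for corticotropin-releasing hormone, was -0.11 (SE 0.23), which did not pass the test.

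Of the 9 genes, 7 had enough counts to be among the 14336 genes tested. *Ceacam2* and *Krt19* did not. With an adjusted p under 0.01 as the rule, 6 of the 7 were called, and in the same comparison 40.7% of all tested genes were called. All 6 were lower in the knockdown line, against 20.1% of all tested genes called lower and 20.6% called higher. For the same 6 genes the highest knockdown library lay below the lowest control library, which held for 17.8% of all tested genes. The median log2 fold change of the 7 was -0.55, and that of all tested genes was -0.0025. Since this comparison chose the genes, these counts are given with nothing read from them. In RNA from whole cultures, fewer cells that express a gene and less RNA per cell cannot be told apart. The plot of normalised counts by library shows 3 patterns, with wide gaps for *Sprr1a*, *Dmkn* and *Ceacam1*, smaller gaps for *Krt18*, *Epcam* and *Krt8*, and mixed libraries for *Krt7*.

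**Figure D1:**
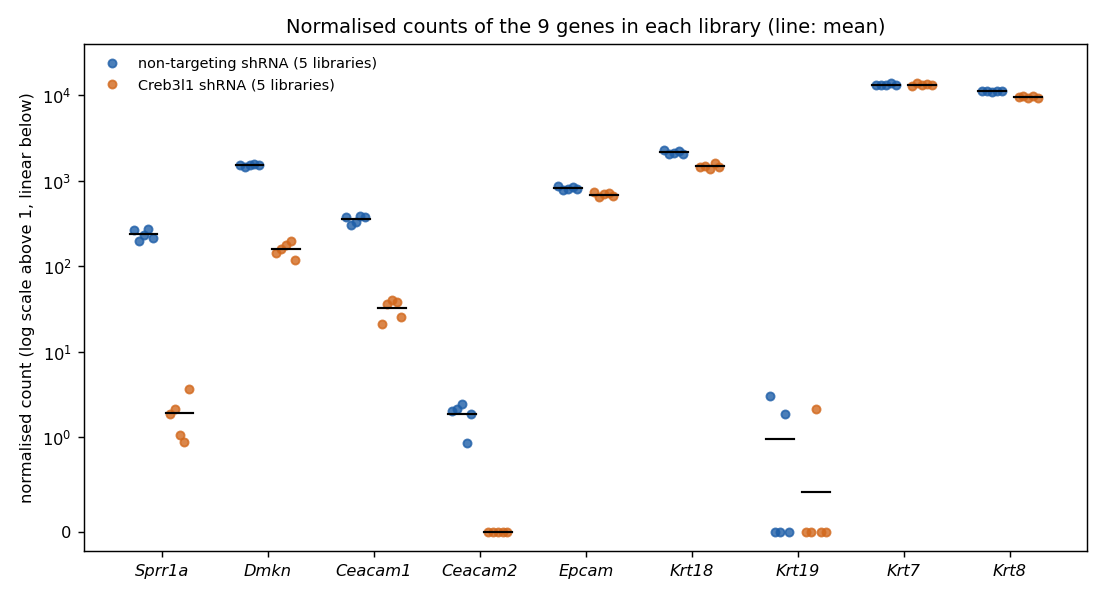
Normalised counts (log scale above 1, linear below) of the 9 genes in the 5 non-targeting shRNA libraries (blue) and the 5 Creb3l1 shRNA libraries (orange), with a line at each mean. *Sprr1a* lies at 197 to 273 in the control line and at 0.948 to 3.64 in the knockdown line, while the libraries of both lines mix for *Krt7*.

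*Sprr1a* (ENSMUSG00000050359, GRCm38 chromosome 3 from 92483952 to 92485895, minus strand) was close to undetected in the knockdown line. Its raw counts in the non-targeting libraries were 264, 186, 190, 291 and 228 for replicates 1 to 5, and in the *Creb3l1* shRNA libraries they were 2, 2, 1, 1 and 4. As normalised counts the means were 237 ± 32.5 (SD, n = 5) and 1.92 ± 1.08 (SD, n = 5). The lines did not overlap, and no knockdown library held more than 4 reads of the gene. Summed over the libraries, 1159 reads stood against 10, which at equal library size is a 121.5-fold difference with a 95% exact interval of 65.8 to 254.1 that covers counting error only. The fitted log2 fold change was -6.83 (SE 0.21). With so few reads the fitted value depends on the small count that the fit adds to each library, and it was -5.92 with an added count of 2.

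*Dmkn* (ENSMUSG00000060962, chromosome 7 from 30763756 to 30781063, plus strand) was the most abundant of the 3 genes with large falls. The control libraries held 1514, 1461, 1529, 1586 and 1535 normalised counts. The knockdown libraries held 144, 159, 176, 195 and 119. The highest knockdown library was thus far below the lowest control library. The means were 1525 ± 44.8 and 159 ± 29.1 (SD, n = 5 each). The fitted difference was 9.65-fold, a log2 fold change of -3.27 (SE 0.07).

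*Ceacam1* (ENSMUSG00000074272, chromosome 7 from 25461707 to 25477603, minus strand) had 373, 305, 333, 389 and 382 normalised counts in the control libraries. In the knockdown libraries it had 21.1, 36.4, 40.4, 37.9 and 25.4. The lines again did not overlap. The means were 356 ± 35.9 and 32.3 ± 8.45 (SD, n = 5 each). The fitted difference was 11.2-fold, a log2 fold change of -3.48 (SE 0.12). Its neighbour *Ceacam2* (ENSMUSG00000054385, from 25516042 to 25539857 on the same strand) lies 38.4 kb away. *Ceacam2* had 2, 2, 2, 1 and 2 reads in the control libraries and 0 in every knockdown library, where a count of 0 allows up to 3 reads per library. Both lines were at or under that floor, so no fold is given. The 2 paralogues share sequence, and 24.2% of the 75-base words of the *Ceacam1* transcripts also occur in *Ceacam2*. Reads of those stretches could have been assigned to either gene or dropped by the counting. A non-coding gene on the opposite strand, *4732471J01Rik*, overlaps both and held 312 reads over all libraries, against 1913 for *Ceacam1*.

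*Krt7*, *Krt8* and *Krt18* were the most abundant of the 9 genes. *Krt7* (ENSMUSG00000023039, chromosome 15 from 101411043 to 101430313, plus strand) had 13263, 13172, 13399, 13827 and 13343 normalised counts in the control libraries. It had 12872, 13844, 13311, 13647 and 13100.1 in the knockdown libraries. The lines overlapped throughout, with means of 13401 ± 253 and 13355 ± 395 (SD, n = 5 each). The log2 fold change was -0.0050 (SE 0.02), and *Krt7* was the only tested gene of the 9 that was not called. The type II keratin *Krt8* (ENSMUSG00000049382, chromosome 15 from 101996698 to 102004482, minus strand) had 11300.5, 11119, 11078, 11410.4 and 11333 normalised counts in the control libraries and 9525, 9731, 9349, 9835 and 9335 in the knockdown libraries. The lowest control library was above the highest knockdown library, although the difference was small (log2 fold change -0.24, SE 0.02). The pseudogene *Krt8-ps* holds 21.97% of the 75-base words of *Krt8*, so that some of its reads could have been split.

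*Krt18* (ENSMUSG00000023043, chromosome 15 from 102028180 to 102032027, plus strand), the type I partner of *Krt8*, had 2314, 2034, 2125, 2221 and 2066 normalised counts in the control libraries. The knockdown libraries had 1456, 1509, 1359, 1603 and 1440.4. Its means were 2152 ± 115 and 1474 ± 90.1 (SD, n = 5 each), and the log2 fold change was -0.55 (SE 0.04). As a ratio, the difference was larger for *Krt18* than for *Krt8* (1.46-fold against 1.18-fold), and no library of one line reached the range of the other. *Krt19* (ENSMUSG00000020911, chromosome 11 from 100140810 to 100148665, minus strand), another type I keratin of simple and duct epithelium, was close to absent. It had 3, 0, 0, 2 and 0 reads in the control libraries and 0, 0, 2, 0 and 0 in the knockdown libraries, and no difference could be measured at this depth.

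*Epcam* (ENSMUSG00000045394, chromosome 17 from 87635979 to 87651129, plus strand) had 874, 784, 797, 849.8 and 813 normalised counts in the control libraries. It had 730.4, 648, 704, 711 and 657 in the knockdown libraries. Means were 824 ± 37.4 and 690.0 ± 35.9 (SD, n = 5 each), with a log2 fold change of -0.26 (SE 0.04). The lines did not overlap, and by the fitted fold change the knockdown line was at 83.7% of the control line.

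By log2 fold change among the 12375 coding genes tested, the falls of *Sprr1a*, *Ceacam1* and *Dmkn* ranked 1, 6 and 8. The coding genes between them were *Mpig6b* (-4.22), *Serpinb5* (-3.98), *Muc4* (-3.76), *Pnliprp2* (-3.73) and *Chit1* (-3.37), whose means over all libraries were 9.16 to 32.1 normalised counts. Just outside *Dmkn* came *Ly6g6c* (-3.20). Among the 10596 coding genes that averaged 100 normalised counts or more, *Sprr1a*, *Ceacam1* and *Dmkn* were the first 3, followed by *Pla2g2f* (-2.64) and *Krt80* (-2.58). *Sprr1a* and *Ceacam1* reached that mean through the control line alone, with 1.92 and 32.3 normalised counts in the knockdown line. The same held for *Krt80* (86.4 in the knockdown line), whereas *Dmkn* averaged 159 there. *Krt18* ranked 682, *Epcam* 1849, *Krt8* 2037 and *Krt7* 6040 of the 12375.

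Levels of different genes were compared per length, as CPM divided by the kilobases of merged exons. In the control line *Krt8* had the highest level, 283 ± 3.60 (SD, n = 5), above those of 99.4% of the 14320 genes ranked. *Krt7* followed at 93.7 ± 1.77, *Krt18* at 73.8 ± 3.96, *Dmkn* at 34.3 ± 1.01, *Epcam* at 18.5 ± 0.840, *Sprr1a* at 14.5 ± 1.99 and *Ceacam1* at 3.02 ± 0.305. No neighbours in this order overlapped between libraries. *Krt19* (0.0260 ± 0.0372) and *Ceacam2* (0.0245 ± 0.00736) came last and did not differ beyond their spread. The order of the first 7 was the same with the length of the longest transcript, although *Krt7* then stood at 161 and *Ceacam1* at 4.80. In the knockdown line the 3 keratins again had the highest levels of the 9, at 240.4 ± 5.64 for *Krt8*, 93.3 ± 2.76 for *Krt7* and 50.5 ± 3.09 for *Krt18*. *Epcam* (15.5 ± 0.806) then stood above *Dmkn* (3.57 ± 0.655). *Ceacam1* (0.274 ± 0.0717) and *Sprr1a* (0.118 ± 0.0661) followed, and their ranges overlapped.

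Because keratin chains pair across types, the balance of the types was set out per library. The level of *Krt8* over that of *Krt18* was 3.84 ± 0.184 in the control line (range 3.58 to 4.03) and 4.77 ± 0.194 in the knockdown line (4.502 to 5.05). The level of *Krt7* over that of *Krt8* was 0.331 ± 0.00502 and 0.388 ± 0.00831 (SD, n = 5 each). This second ratio depends on the length used, and with the longest transcript it was 0.570 and 0.668. Neither ratio overlapped between the lines. Of 20 type II keratins 7 were tested and of 20 type I keratins 5, these genes included. The summed type II level was 380.9 to 394.5 in the control libraries and 330.4 to 346.9 in the knockdown libraries, and the summed type I level was 201.3 to 219.8 and 243.7 to 262.6. The ratio of type II to type I sums was 1.84 ± 0.0673 in the control line and 1.34 ± 0.0156 in the knockdown line, and with the longest transcript as length it was 2.17 and 1.60. The plot of keratin levels shows *Krt23*, the most abundant type I keratin, at 82.8 ± 3.74 in the control line and 170.9 ± 4.53 in the knockdown line, a difference opposite in sign to that of *Krt18*. *Krt23* made up 39.3% of the type I level in the control line and 67.6% in the knockdown line, and the share of *Krt18* was 34.99% and 19.99%.

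**Figure D2:**
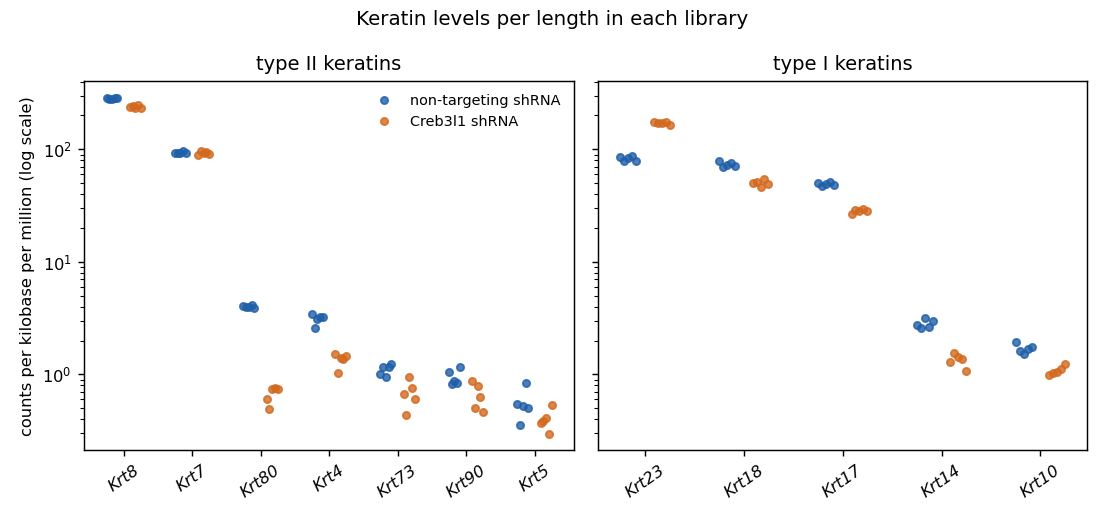
Levels per length of the tested keratins (CPM per kilobase of merged exons, log scale), type II on the left and type I on the right, 1 point per library of the non-targeting shRNA line (blue) and the Creb3l1 shRNA line (orange). *Krt8* and *Krt7* stay near the top, *Krt23* is about 82.8 in the control line and 170.9 in the knockdown line, and *Krt80* is 4.01 and 0.666.

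The other genes of these families were taken from lists and were tested with edgeR's quasi-likelihood test, adjusted after Benjamini-Hochberg over all genes. Of all 14336 genes tested 20.1% were called lower and 20.6% higher, the shares beside which each list count below stands. Of the 18 other type I keratins 4 were tested, and 3 fell and 1 rose. *Krt17*, *Krt14* and *Krt10* fell by 0.80, 1.07 and 0.65 on the log2 scale, and *Krt23* rose by 1.05. Of the 18 other type II keratins 5 were tested and 3 fell, which were *Krt80* (-2.58), *Krt4* (-1.19) and *Krt73* (-0.71). *Krt90* (-0.56, SE 0.18, adjusted p = 0.0101 in that edgeR test) and *Krt5* (-0.48, SE 0.25) did not pass. *Krt90* passed without non-targeting replicate 2 or 4 or *Creb3l1* shRNA replicate 1 or 3 (adjusted p = 0.00274 to 0.00960, edgeR), with the replicate block (0.00932), with library totals (0.00964), without a low-count filter (0.00866) and where each library needed 10 counts (0.00825). The median was -0.73 for the type I list and -0.71 for the type II list, against -0.0025 for all genes.

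*Sprr1a* and *Dmkn* belong with a list of 64 other cornified envelope and secreted epidermal genes, of which 40 had no count and 9 were tested. Of these, 7 fell and 1 rose, with a median log2 fold change of -0.38. The protease inhibitor *Cst6* fell by 1.30 (377 ± 11.8 to 154 ± 19.4 normalised counts, SD, n = 5), suprabasin (*Sbsn*) by 1.18, corneodesmosin (*Cdsn*) by 1.17 and loricrin (*Lor*) by 1.12 on the log2 scale. *Lor* had only 17.3 ± 6.51 normalised counts in the control line. Its call was lost with DESeq2 (adjusted p = 0.0136) and without non-targeting replicate 1, 2 or 3 or *Creb3l1* shRNA replicate 1, 2 or 3 (0.0117 to 0.0284, edgeR). The transglutaminase *Tgm5* was the gene that rose (0.65), and *Aloxe3* (-0.38, SE 0.27) did not pass. Genes that are joined into the envelope beside Sprr1a, such as *Evpl* (-0.21) and *Ppl* (-0.34), were also among those that fell, as was the cystatin *Cstb* (-0.18).

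*Ceacam1* and *Ceacam2* have 26 relatives in the CEACAM and PSG family list, of which 19 had no count and 2 were tested. *Psg16* fell, with a log2 fold change of -0.43 (edgeR, adjusted p = 0.00447), and *Ceacam10* (-0.11, SE 0.11) did not pass. The call for *Psg16* was lost with DESeq2 (adjusted p = 0.0132) and without non-targeting replicate 1, 3 or 5 or *Creb3l1* shRNA replicate 3 or 5 (0.0126 to 0.0223, edgeR). Of 17 signalling partners of Ceacam1, 14 were tested, 3 rose and 5 fell, with a median of -0.023. The Src-family kinase *Fgr* fell by 1.08 on the log2 scale and was not past the threshold without *Creb3l1* shRNA replicate 4 (adjusted p = 0.0103, edgeR). The insulin receptor gene *Insr* fell by 0.52 and the adaptor *Shc1* by 0.41. The phosphatase *Ptpn11* (-0.013, SE 0.03) and *Ctnnb1* (-0.033, SE 0.02) did not pass.

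*Epcam* and the keratins were set beside genes of the epithelial state. Of 39 epithelial regulators and trafficking genes 29 were tested, 16 fell and 3 rose, with a median of -0.25. The laminin chain *Lamb3* fell by 1.64 and the grainyhead factor *Grhl3* by 1.30, while *Trp73* rose by 1.78 and *Foxa2* by 1.21 on the log2 scale. The splicing regulator *Esrp1* (-0.027, SE 0.02) and the protease inhibitor *Spint2* (0.012, SE 0.03) did not pass. Of 40 genes of epithelial junctions 31 were tested, 9 rose and 9 fell, with a median of 0.031. *Crb3* (-1.13), *Tjp3* (-0.96) and *Pkp2* (-0.69) fell, *Cldn12* rose by 0.62, and *Lsr* (0.042, SE 0.03) and *Ctnna1* (0.033, SE 0.03) did not pass. Over the cornified, keratin, regulator and junction lists together (179 genes, without the 9), 78 were tested, 38 fell and 14 rose, with a median of -0.21. Over all tested genes 20.1% were called lower and 20.6% higher. In the opposite direction, of 16 genes of the mesenchymal switch 12 were tested, 5 rose and the other 7 did not pass, with a median of 0.36. By edgeR 0 fell, also at an unadjusted p under 0.05 and by DESeq2. *Zeb2* rose by 1.33, *Snai2* by 0.51, and *Cdh2* and *Zeb1* by 0.39 each on the log2 scale, and *Twist1* (0.14, SE 0.08) and *Fn1* (0.47, SE 0.41) did not pass. *Zeb2* was low in both lines, at 15.3 ± 5.13 and 37.8 ± 5.27 normalised counts (SD, n = 5 each). *Vim*, listed with the intermediate filaments, was at 0.33 (SE 0.43) and did not pass. *Cdh1*, of the junction list, had 0 to 2 counts per control library and 0 to 1 per knockdown library and was not tested. A change of cell state was not tested. The plot of fold changes by list shows these medians beside the 9 genes.

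**Figure D3:**
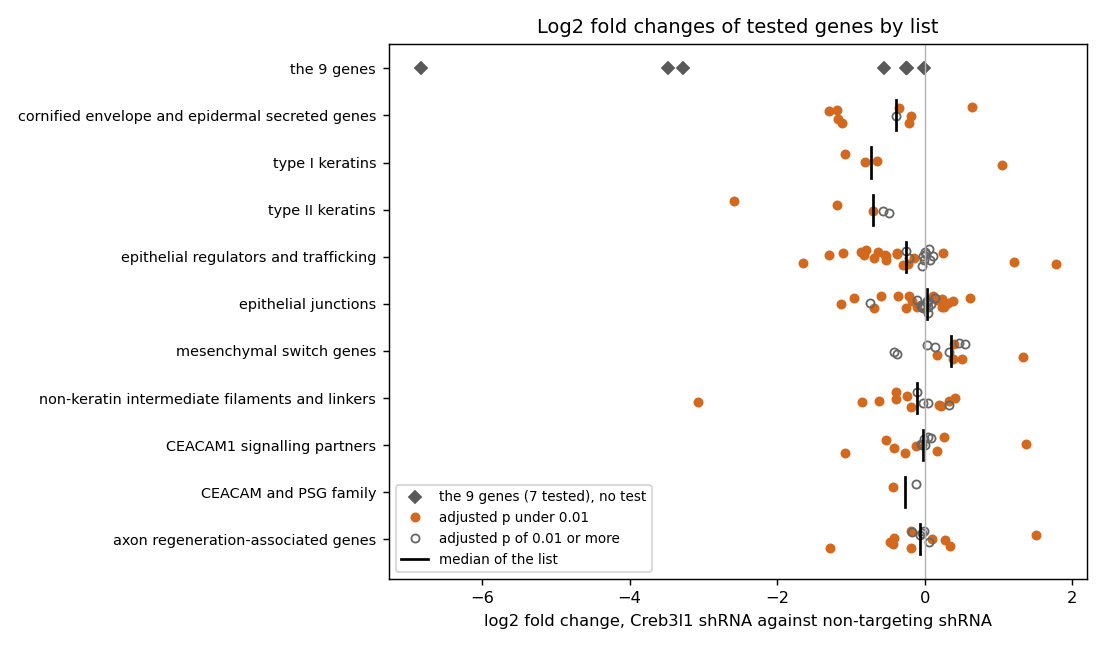
Log2 fold changes of the tested genes of 10 lists and of the 7 tested of the 9 genes (diamonds, no test), with filled points for an adjusted p under 0.01 (edgeR) and a bar at the median of each list. The medians lie between -0.73 (type I keratins) and 0.36 (mesenchymal switch genes). The 9 genes hold the 3 values furthest to the left, which are the values that chose the genes.

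Of 21 other intermediate filament and linker genes 15 were tested, 7 fell and 4 rose, with a median of -0.10. The desmin gene *Des* fell from 54.7 ± 10.6 to 6.43 ± 2.32 normalised counts (SD, n = 5, log2 fold change -3.07). *Lmnb1* fell by 0.62 and *Prph* by 0.85 on the log2 scale, *Dst* rose by 0.41, and *Plec* (-0.10, SE 0.05) and *Lmna* (0.050, SE 0.03) did not pass. The call for *Prph* was lost with DESeq2 (adjusted p = 0.0129) and without non-targeting replicate 3 or 5 or *Creb3l1* shRNA replicate 2 or 4 (0.0134 to 0.0302, edgeR). *Plec* passed with no filter on low counts (adjusted p = 0.00154, edgeR) and without non-targeting replicate 4 (0.00834). *Sprr1a* is also counted among genes of axon regeneration, and of 26 others in that list 15 were tested, 4 rose and 6 fell, with a median of -0.067. *Gadd45a* rose by 1.51, *Plaur* fell by 1.28, *Gap43* by 0.47 and *Atf3* by 0.43 on the log2 scale. *Cap1* (0.054, SE 0.03) and *Tubb3* (-0.067, SE 0.03) did not pass, although *Tubb3* did without *Creb3l1* shRNA replicate 2 (adjusted p = 0.00119, edgeR).

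Markers of cells that could have been mixed into the cultures were examined beside the 9 genes. Of 15 keratinocyte and squamous markers 7 were tested, 5 fell and the other 2 did not pass, with a median of -0.66. *Col17a1* fell by 0.66 on the log2 scale, with *Krt14*, *Krt10*, *Sbsn* and *Lor* as above, and *Itga6* (0.010, SE 0.03) did not pass. Their summed level was 99.8 to 111.7 CPM in the control line and 98.7 to 101.9 in the knockdown line, most of it *Itga6*. *Krt1*, *Trp63*, *Flg* and *Dsg3* had at most 3 counts in any library, while in the control line *Krt14* had 87 to 113 counts per library, and the mean normalised counts were for *Krt10* 73.0 ± 7.08, *Krt5* 24.7 ± 7.90, *Sbsn* 24.4 ± 2.67 and *Lor* 17.3 ± 6.51 (SD, n = 5 each). Of 16 markers of other pituitary cells 9 had at most 3 counts in any library, including *Gh*, *Prl* and *Lhb*, and *Pcsk2* (0.25) and *Sox2* (0.33) were the 2 of 4 tested that rose. The summed level was 28.2 to 31.7 CPM in the control line and 31.3 to 34.3 in the knockdown line. *Sox2* lost its call with DESeq2 (adjusted p = 0.0144), without robust estimation (0.0117) and without non-targeting replicate 1, 2 or 5 or *Creb3l1* shRNA replicate 4 or 5 (0.0111 to 0.0267, edgeR). Of 8 fibroblast markers 3 were tested and 0 were called by edgeR (1 at an unadjusted p under 0.05), with *Col1a1* at 0.38 (SE 0.12) and *Col1a2* at 0.41 (SE 0.38), and their sum was 41.6 to 60.9 and 48.9 to 87.7 CPM. *Col1a1* passed with DESeq2 (adjusted p = 0.00633) and without robust estimation (0.000972, edgeR). Of 8 immune markers 1 was tested (*Cd68*, -0.39, SE 0.19) and was not called by edgeR or DESeq2 (1 at an unadjusted p under 0.05), with sums of 1.73 to 2.65 and 1.49 to 2.06 CPM. Of 7 endothelial markers 2 were tested, *Pecam1* fell by 1.08 on the log2 scale and *Vwf* (-0.011, SE 0.07) did not pass, with sums of 14.2 to 18.4 and 14.3 to 15.8 CPM. *Pecam1* lost its call with DESeq2 (adjusted p = 0.0192), without a low-count filter (0.0192) and without non-targeting replicate 3 or 4 or *Creb3l1* shRNA replicate 2 or 4 (0.0150 to 0.0191, edgeR). The part of such cells in the values of the 9 genes was not tested.

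Along the chromosomes, ordered by gene start, the 5 tested genes before and after each of the 9 genes gave 65 other genes, of which 24 fell, 10 rose and 31 did not pass, with a median log2 fold change of -0.17. Over all tested genes 20.1% were called lower and 20.6% higher. Around *Sprr1a* 3 of 10 neighbours fell and 7 did not pass. The first on either side were *Gm9774* (0.13, SE 0.16) and *Gm4202* (0.22, SE 0.17), neither of which passed. Around *Dmkn* 3 of 10 fell and 1 rose, and *Sbsn*, which lies 7.62 kb away, fell, while *Ffar2* on the other side (0.091, SE 0.04) did not pass. Around *Ceacam1* 6 of 10 fell and 4 did not pass, among them the first on either side, *Gm5587* (-0.35, SE 0.23) and *Dmac2* (-0.056, SE 0.05), and the overlapping *4732471J01Rik* (0.090, SE 0.21). *Krt8* and *Krt18* stand 23.7 kb apart with no coding gene between them, and *Krt7* lies 566 kb from *Krt8* with 25 coding genes between. Of the 9 tested neighbours of *Krt7* outside the 9 genes 5 fell and 4 did not pass. *Krt80* at 40.9 kb (-2.58) and the antisense gene *Gm35853* at 5.21 kb (-2.05) were among those that fell, and *Gm671*, which overlaps *Krt7* on the opposite strand (0.71, SE 0.33), did not pass. Of the 8 of *Krt8* 3 fell, *Krt4* being the first on one side, and the overlapping non-coding *Gm36026* (-0.32, SE 0.16) did not pass. Of the 9 of *Krt18* 4 fell and 1 rose, and its neighbour *Eif4b* was at -0.0020 (SE 0.02). *Krt19* was nearly silent amid 4 genes that rose and 3 that fell of 10, with *Krt14* on one side and the keratin-associated *Krtap17-1* on the other, which went from 1.68 ± 1.16 to 47.6 ± 4.36 normalised counts (SD, n = 5). Around *Epcam* 4 of 10 rose and 2 fell, and *Calm2*, the first on one side, was at -0.066 (SE 0.03) and did not pass except without *Creb3l1* shRNA replicate 1 (adjusted p = 0.00395, edgeR). In the plot of neighbouring genes no tested neighbour of *Sprr1a*, *Dmkn* or *Ceacam1* had a fall as large as theirs. These 3 were chosen for the size of their falls, so nothing is read from this.

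**Figure D4:**
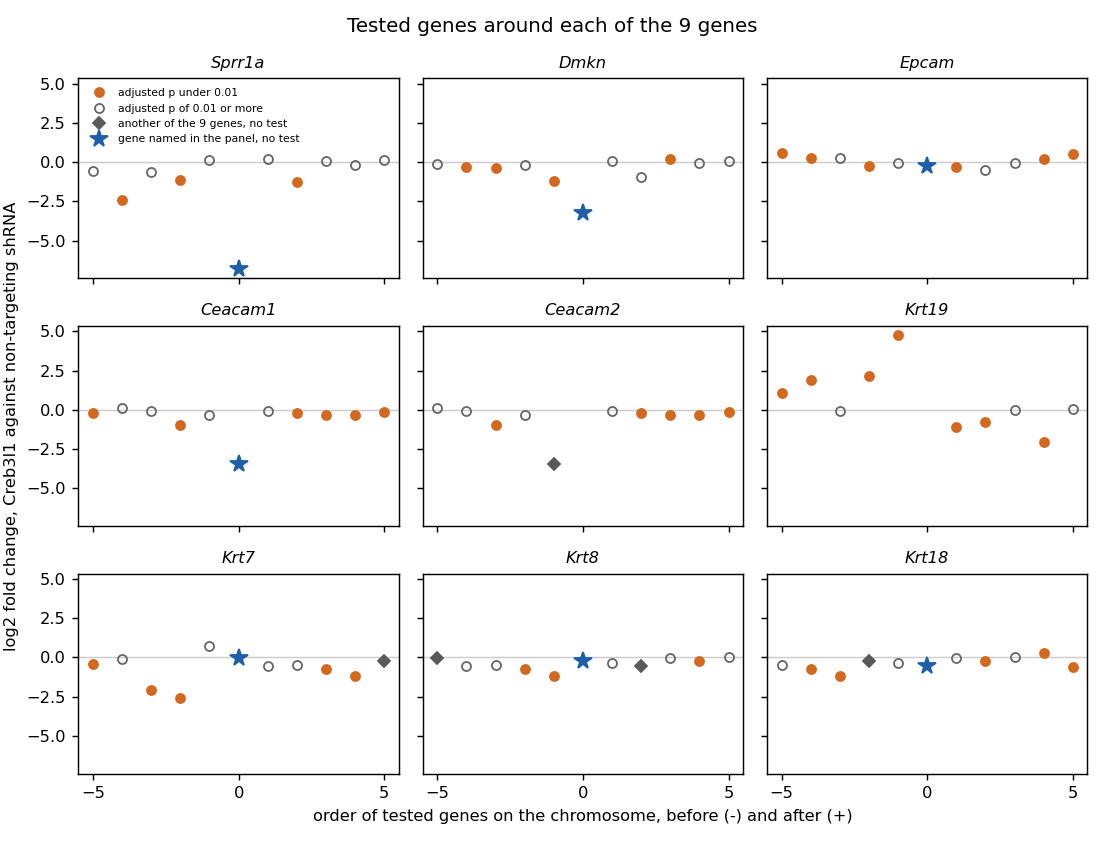
Log2 fold changes of the 5 tested genes before and after each of the 9 genes along its chromosome, ordered by start, 1 panel per gene, with filled points for an adjusted p under 0.01 (edgeR), a star for the gene named and diamonds for others of the 9. The star of *Sprr1a*, a gene chosen for its fall, is at -6.83, below all 10 neighbours. The panel of *Krt19*, which like *Ceacam2* has no star because it was not tested, holds points from -2.06 to 4.76.

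The genes whose values over the 10 libraries were most like those of *Sprr1a*, *Dmkn* and *Ceacam1* were sought among 13228 genes, by the root mean square distance of log2 values centred on the control mean. This measure uses the same comparison that chose the genes and is a description. Among the genes nearest to *Dmkn* were *Ly6g6c* (0.121) and *Ceacam1* (0.232). *Ly6g6c*, a gene of the lymphocyte antigen 6 family, had 123 ± 8.16 and 13.4 ± 3.55 normalised counts (SD, n = 5 each). *Ceacam1* was nearest to *Dmkn* (0.232), followed by *Ly6g6c* (0.246). *Sprr1a* had no close match, with the non-coding *Gm35019* at 1.65, the mucin gene *Muc4* at 2.18 and *Ceacam1* at 2.36. *Gm35019* had 229 ± 31.99 normalised counts in the control line and 10.8 ± 6.33 in the knockdown line, and *Muc4* had 59.7 ± 9.53 and 4.46 ± 4.08.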

How the data were processed

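The 10 AtT20 libraries were grouped by the shRNA that the labels give (n = 5 each). The authors prepared poly(A)-selected libraries with a stranded kit, sequenced them as pairs of 75-base reads, aligned them to GRCm38.p6 with STAR and assigned them to Ensembl genes with featureCounts. Strand and multi-mapping settings of the counting are not given in the sources used here. The authors deposited raw counts per gene, whole numbers without normalisation.

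Counts were analysed with edgeR 4.0.16 and limma 3.58.1 in R 4.3.3 and with Python 3.11.15. Genes were kept by filterByExpr (14336), libraries were scaled by TMM, and the lines were compared by the quasi-likelihood test with robust estimation, no covariate, Benjamini-Hochberg adjustment over all genes and a threshold of 0.01. Standard errors came from the log2 fold change and its F statistic. Depth was 17420698 to 22205107 counts per library, and intervals cover counting error only. Gene positions and merged exon lengths came from a GENCODE annotation of GRCm38, which is older than the authors' annotation but of the same assembly. A neighbour was counted by order of gene starts. Genes not among the 9 were named by rule, which took up to 4 called genes with the largest change and up to 2 of the most abundant others per list, the first tested neighbour on either side and the 3 genes of most similar profile (mean of at least 20 normalised counts, pseudocount 0.5), with *Creb3l1*. Some genes that the rule names are not reported here. *Evpl*, *Ppl*, *Cstb*, *Tgm5*, *Vim*, *Cdh1* and the genes ranked beside *Dmkn* were named after their values were seen. The 9 genes and all lists were chosen with earlier results of these data known.

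Alternatives were DESeq2 1.42.0, RLE size factors, library totals, no filter, a minimum of 10 counts per library, a block for the replicate number, fits with 1 library left out, thresholds of 0.05 or 1.5-fold, a prior count of 2 and the longest transcript as length. A fit without robust estimation was added after the data were seen. The scripts were tested on simulated counts.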

Additional observations from a re-analysis of the deposited data

Results flagged for a closer look

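In groups of 5 libraries, the gap between the lowest or highest library and its nearest neighbour was compared with Dixon's value of 0.71. Of 190 groups 10 passed, where chance gives about 9.5. Of the 9 genes only *Krt19* was among them, with 2.13 normalised counts in *Creb3l1* shRNA replicate 3 and 0 in the other 4. In the same library *Muc4* stood at 11.7 (others 1.84 to 3.21) and *Krtap17-1* at 55.3 (others 45.0 to 46.4). The TMM factor was 0.953 in non-targeting replicate 3 (others 1.005 to 1.007) and 0.9998 in *Creb3l1* shRNA replicate 1 (others 1.005 to 1.006). In non-targeting replicate 2 *Col17a1* had 72.1 normalised counts (others 92.5 to 100.3), *Crb3* 31.8 (others 45.2 to 49.0) and *Ly6g6c* 109.1 (others 124 to 129). *Snai2* had 312 in non-targeting replicate 3 (others 244 to 262), and *Col1a2* had 313 in non-targeting replicate 1 (others 166 to 207).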

How the results depend on the processing

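Of the 9 genes 7 had a log2 fold change. With each library left out in turn, *Sprr1a* was between -7.19 and -6.66, *Dmkn* between -3.36 and -3.17, *Ceacam1* between -3.57 and -3.35, *Krt18* between -0.58 and -0.52, *Epcam* between -0.28 and -0.23, *Krt8* between -0.25 and -0.22, and *Krt7* between -0.016 and 0.0085. *Sprr1a* was -5.92 with a prior count of 2 and was not tested when at least 10 counts were required in every library. *Ceacam2* and *Krt19* had too few counts for any fit in the filtered table. The libraries were not taken as pairs by number, since correlations of same-numbered libraries were between -0.065 and 0.040 and 4 of 10 libraries correlated best with their own number. With the replicate block 6013 genes were called, against 5837 without it and 5542 with DESeq2.

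At 1.5-fold 1108 genes were called (470 higher, 638 lower). With that limit 4 neighbours rose and 13 fell. Counts of genes that fell were then 4 for the cornified list, 3 for intermediate filaments and linkers, 0 for the CEACAM and PSG family, 1 for Ceacam1 partners, 4 for junctions, 8 for regulators, 1 for axon regeneration and 0 for corticotroph markers. Counts that rose were 0 for intermediate filaments, 1 each for Ceacam1 partners, junctions, the mesenchymal switch and axon regeneration, 2 for corticotroph markers and 0 for other pituitary markers. Of type II keratins 5 fell with no filter on low counts. Of the CEACAM and PSG family 0 fell with DESeq2, and 0 to 1 with a library left out. Of other pituitary markers 1 rose with DESeq2 or without robust estimation and 1 to 2 with a library left out, and 1 fell with DESeq2, with no filter or at 0.05. Of keratinocyte markers 3 fell with at least 10 counts in every library. Of fibroblast markers 1 rose with DESeq2, without robust estimation or at 0.05. Of endothelial markers 0 fell with DESeq2, with no filter or with at least 10 counts, and 0 to 1 with a library left out. The cause of these shifts was not tested, except that a fold limit or filter removes genes by its construction.

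For 83 named genes outside the 9, 12 of 1402 recomputed log2 fold changes changed sign, all of genes that did not pass. With a library left out, *Crhr1* was between -0.36 and 0.020 (0.0084 without non-targeting replicate 5, 0.020 without *Creb3l1* shRNA replicate 4). *Eif4b* was between -0.0089 and 0.013 (0.0089 without non-targeting replicate 1, 0.00019 and 0.013 without *Creb3l1* shRNA replicates 3 and 5), and at 0.011 with library totals. *Itga6* was between -0.021 and 0.035 (-0.021 without non-targeting replicate 4, -0.0010 without *Creb3l1* shRNA replicate 1), and *Spint2* between -0.0026 (without non-targeting replicate 5) and 0.025. *Vwf* was between -0.058 and 0.054 (0.054 without non-targeting replicate 2, 0.014 without *Creb3l1* shRNA replicate 3), and at 0.0011 with library totals.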

Other observations

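In the control line the coefficient of variation of *Dmkn* was 2.94%, close to the 2.59% that counting alone gives, and in the knockdown line it was 18.4% against 7.87%. For *Ceacam1* it was 10.1% against 5.35% in the control line and 26.2% against 17.5% in the knockdown line. For *Krt8* it was 1.27% and 2.35%, where counting gives 0.954% and 1.01%. For *Krt18* it was 5.36% and 6.11%, where counting gives 2.18% and 2.57%. These values are a description and were not tested.

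The surroundings of *Sprr1a* on chromosome 3 hold other genes of the epidermis, named here after their values were seen. *Pglyrp3*, a peptidoglycan recognition protein gene 452 kb away, fell from 445 ± 15.8 to 83.0 ± 8.19 normalised counts (SD, n = 5), and *S100a11*, at 1035 kb on the other side, fell from 348 ± 15.9 to 142 ± 11.9. *Pglyrp3* and *S100a11* had log2 fold changes of -2.42 and -1.29. Of the 10 tested neighbours of *Sprr1a* 7 did not pass, among them *S100a6* (-0.54, SE 0.24). Near *Krt19*, keratin-associated *Krtap16-1* and *Krtap3-3* rose from 10.8 ± 4.74 to 47.9 ± 6.60 and from 6.43 ± 2.45 to 25.3 ± 6.10 normalised counts (SD, n = 5), and the gastrin gene *Gast* fell from 65.0 ± 11.8 to 15.7 ± 3.16. The 5 genes given here with their counts passed the threshold of 0.01 in edgeR's quasi-likelihood test, adjusted after Benjamini-Hochberg.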
